A study of Mus musculus with 20 samples.

Results

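The genes described here are 41 genes of the cell cycle and DNA replication, of 35975 genes measured in all. They were chosen by name, for their function, with earlier results of these data known. The deposited estimated counts of the genes' transcripts were summed per gene in all 20 libraries. The libraries come from ES-E14TG2a, an established line of mouse embryonic stem cells, either wild type (WT) or carrying a genotype that the labels call TKO and do not spell out. Cells were sampled on day 0 (D0), when they grew without feeder cells on gelatin in serum with leukemia inhibitory factor (LIF), and on D2, D4, D6 and D8 after transfer to laminin in plain N2B27 medium for differentiation to neural progenitor cells (NPC). Each of the 10 combinations of genotype and day has 2 biological replicates, and D0 differs from every later day in medium and coating as well as in time, which cannot be told apart. The labels do not say how many clones or cultures stand behind a genotype, so p-values measure the spread between these samples.

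A cell that divides passes through a growth phase (G1), DNA synthesis (S phase), a second gap (G2) and mitosis (M phase). Cyclins bind and switch on cyclin-dependent kinases: D cyclins with CDK4 and CDK6 in G1, cyclin E with CDK2 at the entry into S phase, and cyclins A and B with CDK1 and CDK2 later. The MCM helicase is loaded onto DNA in G1, which is called licensing, and many replication genes are transcribed through E2F factors, whereas many mitotic genes are transcribed late in the cycle through FOXM1 and the MuvB complex. Mouse embryonic stem cells have a short G1, and G1 lengthens as neural progenitors form and stops being followed by division when they become neurons.

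Totals were 26015282 to 38074768 estimated counts per library. Levels are given as CPM, a gene's counts as a share of the library total, scaled to a common total, with library sizes adjusted by the trimmed mean of M-values, and a gene is called changed where edgeR's quasi-likelihood test gave an adjusted p (Benjamini-Hochberg over 18555 genes) under 0.05. Of the 3 DNA methyltransferase genes, Dnmt1 averaged 78.7 to 91.1 CPM in the TKO groups and 295 to 481 CPM in the WT groups. Dnmt3a was lower in TKO than in WT on each day, and Dnmt3b was lower on every day but D8, when it averaged 88.2 CPM in TKO and 46.6 CPM in WT. Both genotypes started with high summed levels of 9 pluripotency markers, 7232 and 7089 CPM for WT and 6759 and 6591 CPM for TKO at D0, and WT ended with high levels of 8 neuronal markers, as given below. The genotypes were not alike in all markers at D0. The summed levels of 6 endoderm markers were 140 and 144 CPM in TKO and 12.4 and 16.1 CPM in WT. Those of 6 trophoblast markers were 29.0 and 28.7 CPM in TKO and 152 and 144 CPM in WT. All 41 genes passed the filter on low counts. In bulk RNA, fewer cells of a type and less RNA per cell cannot be told apart.

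Promoter stretches of 5 genes are shown because they hold, or lack, the 3 motifs by which replication and mitotic genes are usually grouped. At D8 Mcm6, Mcm5, Cdk1 and Ccnb2 were higher in TKO than in WT, and Cdkn1b was lower. RefSeq (GRCm38.p6) windows from 250 bases before to 50 bases after a start site were found for 32 of the 41 genes, in 36 windows. The motifs were searched on both strands: an E2F motif (TTTGGCGC, TTTCCCGC, TTTGCCGC or TTTCGCGC), CCAAT, and the cell cycle genes homology region or CHR (TTTGAA or TTCGAA). Matches may overlap, as 2 E2F matches on opposite strands do in Mcm6 and in Mcm5. The stretches lie at chr1:128359706-128359955 (minus strand) for Mcm6, chr8:75109259-75109508 (plus) for Mcm5, chr10:69352939-69353162 (minus) for Cdk1, chr9:70421555-70421804 (minus) for Ccnb2 and chr6:134920151-134920400 (plus) for Cdkn1b. They run 5′ to 3′ and end before the start of the transcript, with the motif letters in capitals.
Mcm6: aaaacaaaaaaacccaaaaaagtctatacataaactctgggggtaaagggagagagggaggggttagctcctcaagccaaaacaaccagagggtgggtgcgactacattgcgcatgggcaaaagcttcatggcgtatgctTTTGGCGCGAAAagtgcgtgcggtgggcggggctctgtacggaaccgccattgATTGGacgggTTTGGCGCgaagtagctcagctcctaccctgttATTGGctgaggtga
Mcm5: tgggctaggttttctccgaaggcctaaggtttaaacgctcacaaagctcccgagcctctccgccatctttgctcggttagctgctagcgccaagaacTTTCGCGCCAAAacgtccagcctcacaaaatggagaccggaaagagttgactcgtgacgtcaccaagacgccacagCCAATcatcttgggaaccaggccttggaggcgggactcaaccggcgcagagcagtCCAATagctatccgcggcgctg
Cdk1: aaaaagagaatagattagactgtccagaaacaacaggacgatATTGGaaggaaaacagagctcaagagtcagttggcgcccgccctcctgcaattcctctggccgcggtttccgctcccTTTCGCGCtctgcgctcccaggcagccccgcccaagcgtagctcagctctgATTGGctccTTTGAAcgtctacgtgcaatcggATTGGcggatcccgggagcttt
Ccnb2: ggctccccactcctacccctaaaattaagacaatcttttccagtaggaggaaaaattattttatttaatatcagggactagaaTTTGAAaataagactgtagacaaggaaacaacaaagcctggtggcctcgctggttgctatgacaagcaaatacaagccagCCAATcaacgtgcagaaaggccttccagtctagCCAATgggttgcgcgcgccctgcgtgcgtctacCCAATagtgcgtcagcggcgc
Cdkn1b: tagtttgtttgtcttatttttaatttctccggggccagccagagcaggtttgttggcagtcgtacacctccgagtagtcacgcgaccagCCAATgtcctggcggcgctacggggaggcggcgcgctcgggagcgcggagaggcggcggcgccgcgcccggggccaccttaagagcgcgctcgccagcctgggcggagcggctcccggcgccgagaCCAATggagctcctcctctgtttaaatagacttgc

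The stretches of Mcm6 and Mcm5, subunits of the MCM helicase, hold E2F and CCAAT letters. That of Cdk1, the kinase that drives entry into mitosis, holds all 3 motifs, that of Ccnb2, a B cyclin that activates it, holds CHR and CCAAT letters, and that of Cdkn1b, which encodes the CDK inhibitor p27, holds only CCAAT letters. E2F letters were found in 9 of the 36 windows, against 2.26% of 32851 RefSeq windows of the same length, and 6 of those 9 belonged to licensing and replication fork genes (Mcm3, Mcm5, Mcm6, Mcm7, Cdc6 and Cdt1). CHR letters were found in 13 windows, against 19.2% of all windows, and 5 of the 6 windows of mitosis genes held them. CCAAT letters were found in 26 windows, against 37.4%. These matches describe letters in a window, not bound sites. The 5 stretches shown do not stand for all genes. E2f2 held all 3 motifs over its windows and was lower in TKO at D8. Of the genes whose windows held none of the 3, Ccne1, Tyms, Birc5 and Cdk6 were higher, E2f1 was lower and Cdk4 was not called. No window was found for Ccnd1, Ccnd2, Gins1, Gins2, Foxm1, Ccna2, Mcm4, Aurkb and Ccne2.

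The course over 8 days was similar for most genes up to D6 and then parted between the genotypes. The mean level was highest at D2 for 20 genes in WT and for 20 genes in TKO. In WT it was lowest at D8 for 28 genes, whereas in TKO it was lowest at D6 for 20 genes and at D8 for 10.

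**Figure D1:**
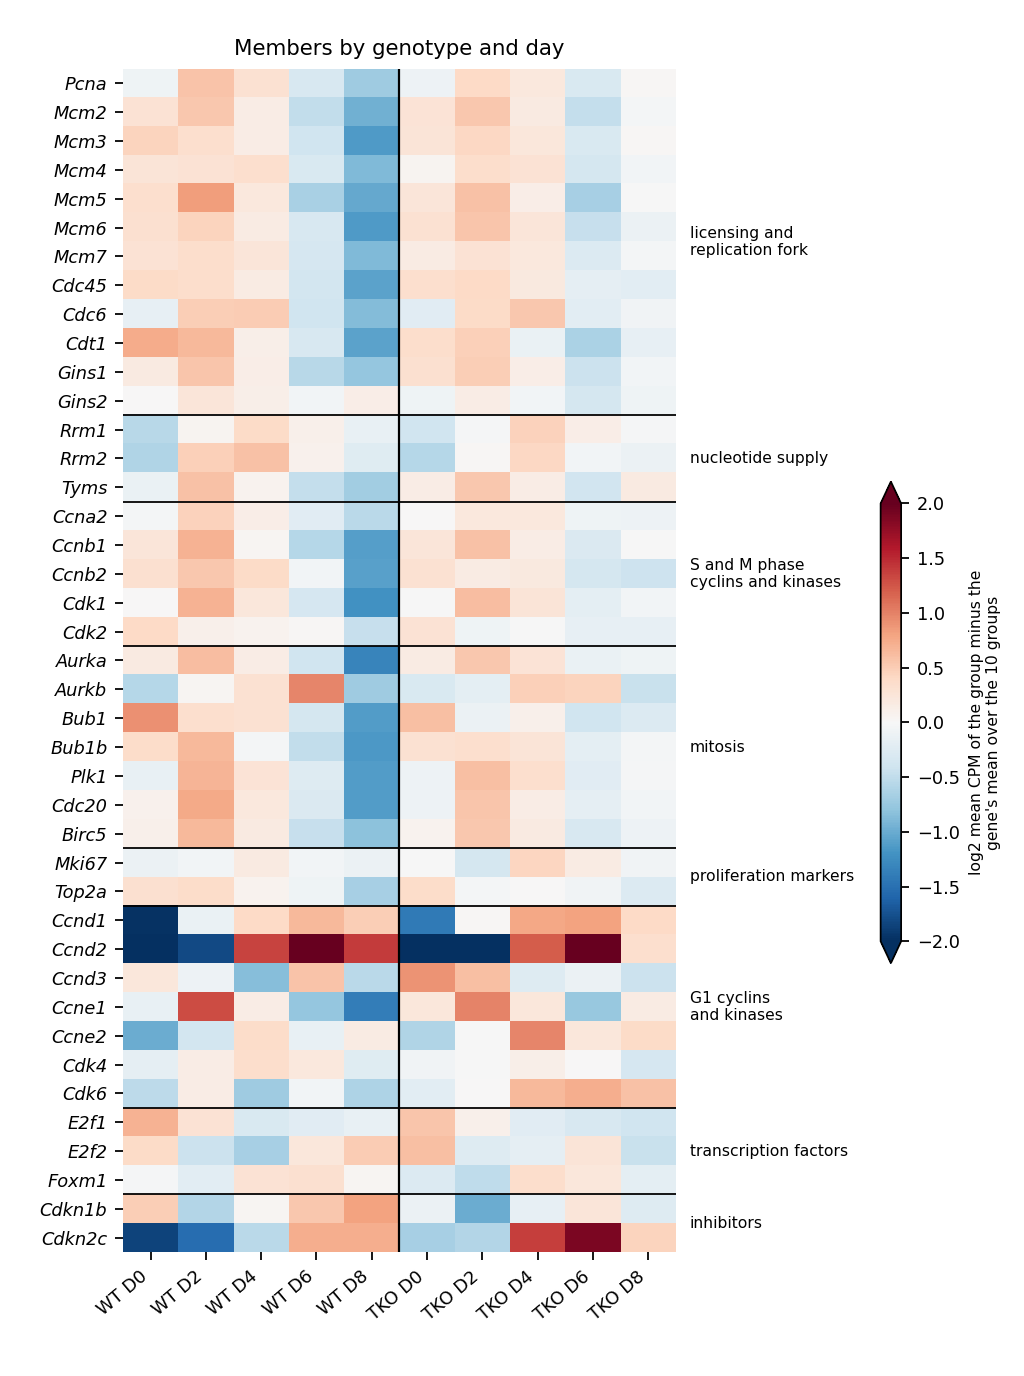
Heat map of the 41 genes (rows, by role) in the 10 groups (columns), colored by the log2 of the group's mean CPM minus the gene's own mean over the 10 groups. Most rows of the replication and mitosis genes are darkest blue at WT D8, while Ccnd1, Ccnd2 and Cdkn2c are lowest at D0.

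From D0 to D2, 25 of the 41 genes rose in WT, 7 fell and 9 were not called, with a median log2 fold change of 0.35 (54.7% of all genes tested were called in either direction, 25.8% as higher). The 3 nucleotide supply genes rose in WT, as did 6 of 7 G1 genes and 6 of 7 mitosis genes. Ccne1, the E cyclin that activates CDK2 at the entry into S phase, went from 101 and 103 CPM in the 2 libraries of WT D0 to 275 and 284 CPM at D2. That is a log2 fold change of 1.46 (standard error, SE, 0.11, adjusted p = 4.66e-09, edgeR). Cdkn1b went the other way, from 87.8 and 89.5 CPM to 41.1 and 42.8 CPM (log2 fold change −1.08, SE 0.07, edgeR adjusted p = 9.68e-10). Both D2 libraries lay on the same side of both D0 libraries for each gene. In TKO, 22 genes rose and 9 fell over this step (53.6% of all genes called), with a median of 0.20.

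Between D2 and D6 most replication fork and mitosis genes fell in both genotypes. From D2 to D4, 8 of 12 replication fork genes and 5 of 7 mitosis genes fell in WT, and 9 and 4 in TKO. Of the mitosis genes, 1 rose in WT over each of these steps, and 2 rose in TKO from D2 to D4. From D2 to D4, 22 genes fell and 10 rose in WT (61.9% of all genes called, 30.1% as lower), and 19 fell and 12 rose in TKO (61.9% called, 30.3% as lower). From D4 to D6, 28 fell and 8 rose in WT (53.4% of all genes called, 26.0% as lower), and 29 fell and 4 rose in TKO (48.1% called, 23.4% as lower). All 12 licensing and replication fork genes fell in TKO over that step, with a median log2 fold change of −0.54, and 11 of 12 fell in WT, with a median of −0.60. Cdc6, which loads the helicase together with Cdt1, fell from 77.0 and 84.2 CPM to 36.5 and 49.2 CPM in WT (log2 fold change −0.91, SE 0.10, edgeR adjusted p = 7.66e-07). At D6 replicate 1 of WT lay below replicate 2 for 37 of the 41 genes, by a median log2 of 0.19, so the depth of the fall at WT D6 differs between its 2 libraries.

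From D6 to D8 the genotypes went apart. In WT 32 genes fell, 3 rose and 6 were not called (57.0% of all genes called, 30.4% as lower), with a median log2 fold change of −0.48. In TKO 16 genes rose, 11 fell and 14 were not called, with a median of 0.12 against 0.04 over all genes. Of all genes, 50.0% were called over this step in TKO, 25.5% as higher and 24.5% as lower. A test of the difference itself, the interaction of genotype with D8 against D6, called 30 genes, 27 of them with a higher change in TKO (49.9% of all genes called, 25.5% as higher). The median interaction was 0.65, against −0.02 over all genes.

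**Figure D2:**
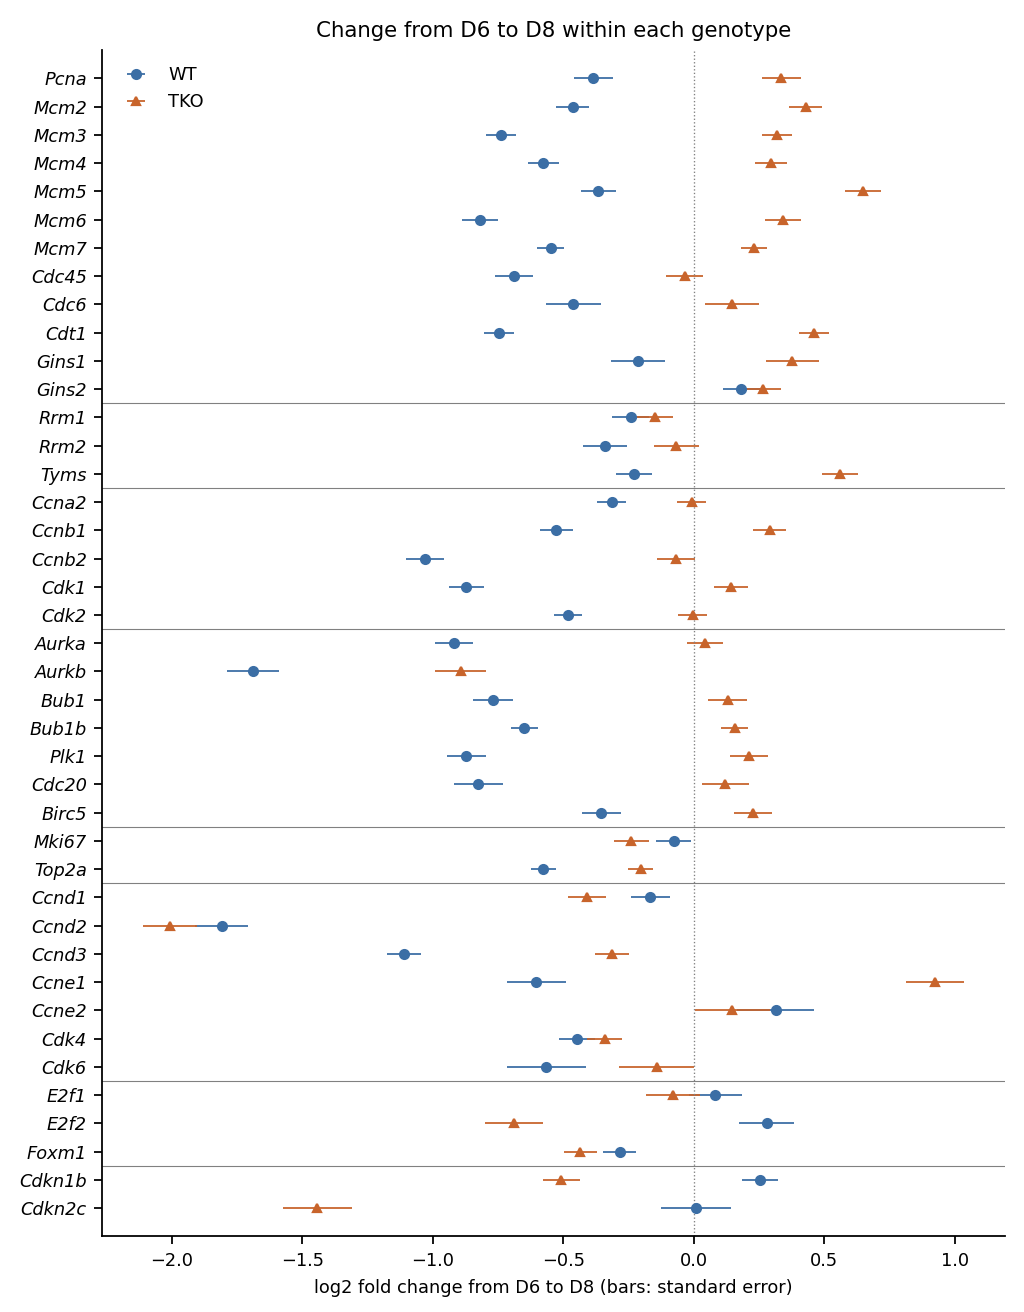
Log2 fold change from D6 to D8 (x axis) of each of the 41 genes in WT and in TKO, with bars of 1 SE from the edgeR fit. The WT points of the replication fork and mitosis genes lie left of 0, except that of Gins2 at 0.18, while most TKO points of the replication fork genes lie right of it, and Ccnd2, Aurkb and Ccnd3 lie left of 0 in both.

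Among the licensing and replication fork genes, Mcm2 had 477 and 532 CPM at WT D0, 596 and 599 at D2, 455 and 459 at D4, 274 and 315 at D6 and 211 and 215 at D8. In TKO it had 503 and 496, 616 and 579, 465 and 474, 293 and 302, and then 402 and 398 CPM. The genotypes overlapped at D0, D2 and D6, and at D8 both TKO libraries lay above both WT libraries. The D8 difference was 0.91 on the log2 scale (SE 0.064, edgeR adjusted p = 7.81e-10), and the level fell by 0.46 from D6 in WT while it rose by 0.43 in TKO. Pcna, the sliding clamp of the DNA polymerases, had 191 and 188 CPM at WT D8 and 319 and 312 CPM at TKO D8, from 223 and 272 and from 239 and 261 CPM at D6. Its D8 difference was 0.74 (SE 0.074, edgeR adjusted p = 9.71e-08).

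Of the 12 genes of this role, 11 were higher in TKO at D8, with a median of 0.85, and the exception was Gins2 (67.5% of all genes tested were called at D8, 35.8% as higher). Mcm3 had the highest difference of the role, 1.15 (WT 176 and 177 CPM, TKO 392 and 391 CPM, SE 0.058, edgeR adjusted p = 1.22e-11). Mcm5 rose most of these 12 from D6 to D8 in TKO, from 329.6 and 335 CPM to 522 and 519.6 CPM (log2 fold change 0.65), and fell in WT from 304 and 364 to 259.7 and 258.8 CPM. Cdt1, the loader that geminin restrains outside G1, had been lower in TKO on each earlier day: 228 and 228 CPM against 308 and 293 CPM at D0 (log2 difference −0.40, edgeR adjusted p = 2.65e-05), and 120.2 and 112 CPM against 136 and 150.0 CPM at D6. At D8 it was higher in TKO, 160.1 and 159 CPM against 83.5 and 87.2 CPM, so the order of the genotypes turned between D6 and D8 (interaction 1.20, SE 0.08, edgeR adjusted p = 3.46e-09).

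Gins2, a subunit of the GINS complex of the replicative helicase, was the only gene of its role called as higher in WT over this step, with 94.5 and 110.5 CPM at D6 and 120.3 and 112 CPM at D8, against 101 and 98.4 CPM in TKO at D8. Its reads are hard to assign: 66.2% of its 31-base words also occur in other genes, mainly Gse1. The shares of its transcripts differed as well, since the retained-intron form made up 27.8% and 30.9% of the gene's summed TPM (transcript abundance corrected for length) at WT D8 and a mean of 54.3% to 68.6% in the other 9 groups. With counts corrected for transcript length the D8 difference turned from −0.22 to 0.50 (edgeR adjusted p = 9.92e-05) and the WT change from D6 to D8 from 0.18 to −0.90, so the direction for Gins2 depends on that choice.

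The nucleotide supply genes parted from the replication fork. Rrm1 and Rrm2, the subunits of ribonucleotide reductase, were lowest at D0 in both genotypes and highest at D4. Rrm2 had 178 and 169 CPM at WT D0, 390 and 399.6 CPM at D4 and 212 and 229 CPM at D8, against 239 and 242 CPM at TKO D8, a log2 difference of 0.13 (SE 0.086) that was not called. Tyms, which makes thymidylate, had 46.0 and 50.5 CPM at WT D8 and 90.6 and 86.4 CPM at TKO D8 (log2 difference 0.88, SE 0.069, edgeR adjusted p = 3.73e-09). Tyms thus followed the helicase genes at D8 and the reductase genes did not pass the test.

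All 5 S and M phase cyclins and kinases and all 7 mitosis genes were higher in TKO at D8, with medians of 0.66 and 1.07, beside 35.8% of all genes called as higher. Cdk1 had 68.6 and 71.1 CPM at WT D8 and 156 and 154 CPM at TKO D8 (log2 difference 1.15, SE 0.066, edgeR adjusted p = 6.06e-11), from 120.1 and 136 and from 142 and 139 CPM at D6. Ccnb1, the main mitotic cyclin, had 143 CPM in each WT library at D8 and 312 and 299 CPM in the TKO libraries (log2 difference 1.09, SE 0.065, edgeR adjusted p = 8.38e-11). The 2 libraries of each group lay close together and the genotypes did not overlap.

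Cdk1 fell by 0.87 from D6 to D8 in WT, and its TKO change of 0.14 (SE 0.065) did not pass the test, so the D8 difference of Cdk1 came with a fall in WT. Ccnb1 fell by 0.53 in WT and rose by 0.29 in TKO. Among the mitosis genes, the kinase gene Aurka had 39.2 and 39.7 CPM in WT at D8, and in TKO 91.6 and 92.5 CPM, the highest difference of the role at 1.22 (SE 0.073, edgeR adjusted p = 9.05e-11). The checkpoint kinase gene Bub1b followed at 1.10 (SE 0.052), and Plk1, the polo-like kinase, and Cdc20, the activator of the anaphase-promoting complex, differed by 1.10 (SE 0.076) and 1.07 (SE 0.093). Bub1, another checkpoint kinase, had the deepest fall of all 41 genes between D0 and D8 in WT, from 291 and 247 CPM to 64.5 and 67.2 CPM (log2 fold change −2.03, SE 0.076, edgeR adjusted p = 4.37e-14).

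**Figure D3:**
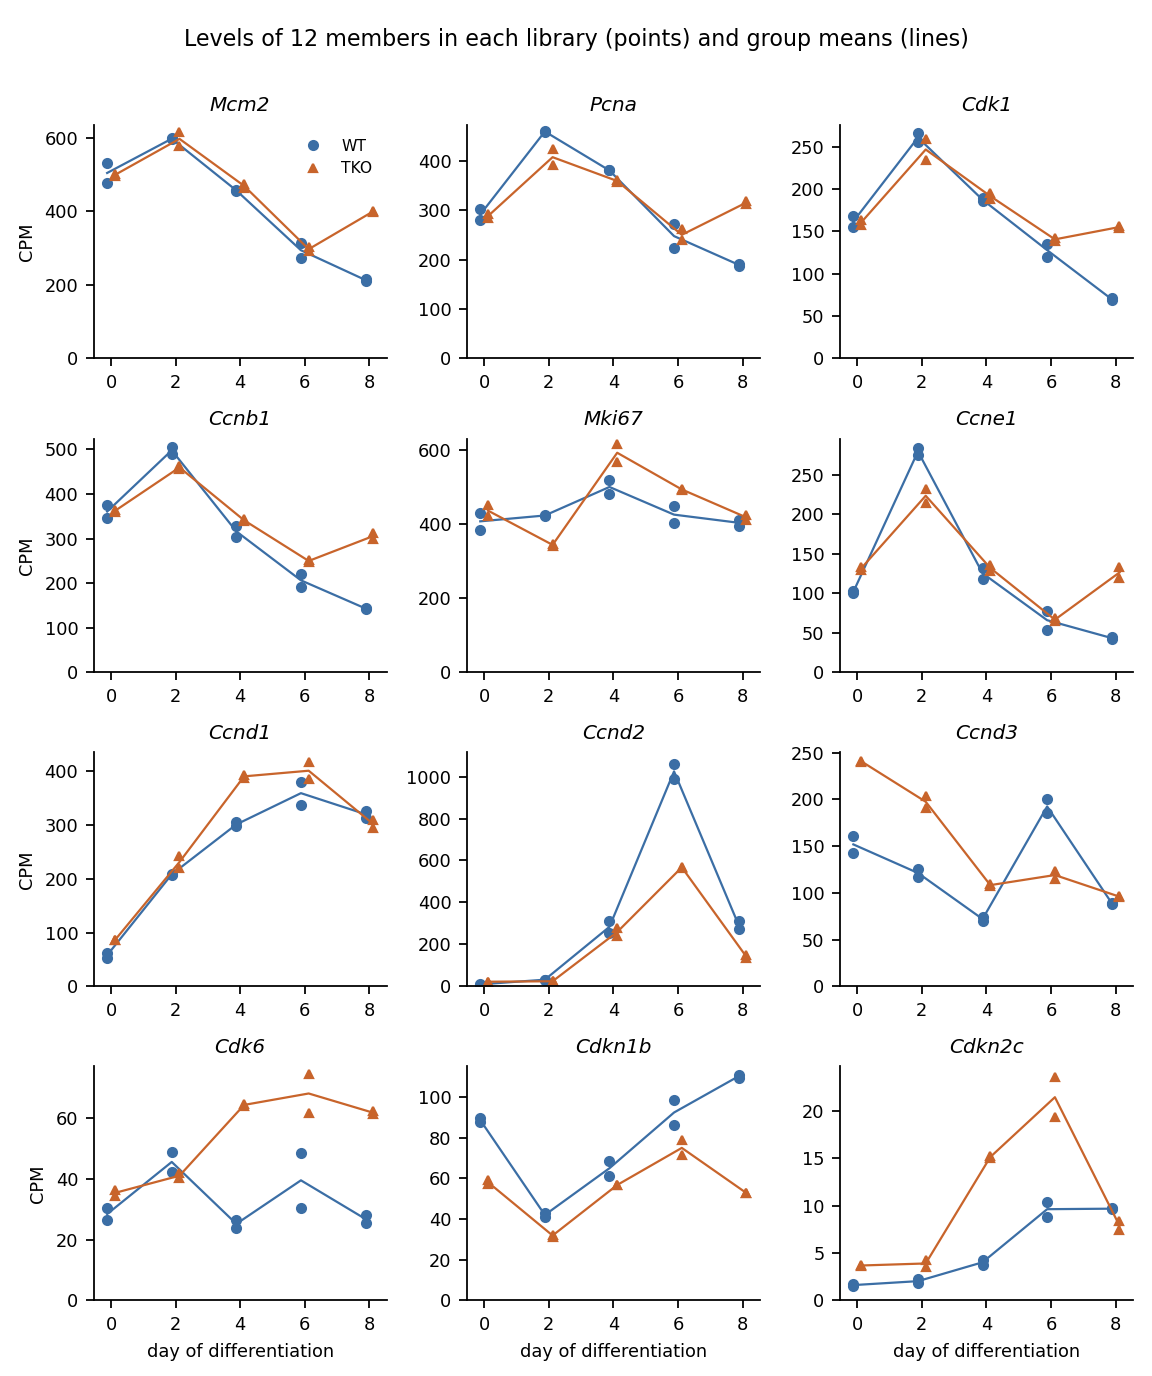
CPM (y axis) in each library by day (x axis) for 12 of the genes, WT as blue circles and TKO as orange triangles, with lines through the group means. Mcm2, Pcna, Cdk1, Ccnb1 and Ccne1 separate at D8 with TKO above WT, Cdkn1b separates with TKO below WT, and Mki67 overlaps at D8.

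Aurkb, the kinase of the chromosomal passenger complex, did not follow Aurka. It had 72.8 and 53.5 CPM at WT D0, 116 and 116 CPM at D4, 179 and 189 CPM at D6 and 57.8 and 56.6 CPM at D8. In TKO it had 134 and 123 CPM at D6 (log2 difference −0.52, SE 0.095, edgeR adjusted p = 0.000297) and 71.0 and 67.7 CPM at D8. It was highest at D6 in WT, where the other mitosis genes were highest at D0 or D2. Its D8 difference of 0.28 was lost without TKO D8 replicate 1 (0.25, adjusted p = 0.0907) and without WT D8 replicate 2 (0.27, adjusted p = 0.0702), and it was 0.17 and not called with counts corrected for transcript length (edgeR adjusted p = 0.149). Birc5, which encodes survivin of the same complex, was higher in TKO at D8 by 0.72 (SE 0.073).

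Mki67, the gene of the Ki-67 antigen used to count dividing cells, moved little in WT. It had 431 and 384 CPM at WT D0 and 395 and 412 CPM at WT D8, and 412 and 425 CPM at TKO D8, where the genotypes overlapped (log2 difference 0.05, SE 0.067, not called). Its highest WT group mean was 1.24 times its lowest, whereas the ratio was 3.73 for Cdk1 in WT. In TKO these ratios were close, 1.72 for Mki67 and 1.75 for Cdk1. There Mki67 dipped at D2 to 341 and 347 CPM and reached 568 and 617 CPM at D4. Top2a, the topoisomerase that untangles chromosomes, fell in WT from 906 and 888 CPM at D0 to 443 and 457 CPM at D8, and had 601 and 581 CPM at TKO D8 (log2 difference 0.39, SE 0.048, edgeR adjusted p = 1.13e-06). The 2 proliferation marker genes therefore gave different pictures of D8.

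The G1 genes did not share a direction at D8, when 2 of 7 were higher in TKO (Ccne1 and Cdk6), 1 was lower (Ccnd2) and 4 were not called, beside 67.5% of all genes called. From D6 to D8 in WT 5 of the 7 fell and none rose, beside 57.0% of all genes called, 30.4% as lower. Ccnd2, a D cyclin, had the widest range of the 41 genes: 8.52 and 10.7 CPM at WT D0, 31.1 and 32.6 at D2, 312 and 255 at D4, 987 and 1062 at D6 and 273 and 312 at D8. In TKO it had 21.3 and 23.1, 24.0 and 24.8, 238 and 279.8, 566 and 569, and 134 and 148 CPM. TKO was above WT at D0 (log2 difference 1.21, SE 0.13, edgeR adjusted p = 1.2e-06) and below it at D6 (−0.85, SE 0.10, adjusted p = 2.35e-06) and D8 (−1.05, SE 0.10, adjusted p = 5.07e-08). From D6 to D8 it fell by 1.81 in WT and by 2.01 in TKO on the log2 scale, and the difference between these falls did not pass the interaction test (−0.20, SE 0.14, edgeR adjusted p = 0.264).

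Ccnd1 had 62.8 and 52.9 CPM at WT D0 and 85.3 and 86.4 CPM at TKO D0. In WT it rose to 338 and 379.9 CPM at D6. In TKO it had 393 and 387 CPM at D4 and 385 and 416 CPM at D6, a step that was not called. At D8 the levels were 313 and 326 CPM for WT, and 309 and 293 CPM for TKO, a log2 difference of −0.09 (SE 0.073) that was not called. Ccnd3 was higher in TKO than in WT from D0 to D4, for example 204 and 191 CPM against 117 and 125 CPM at D2 (log2 difference 0.70, SE 0.065, edgeR adjusted p = 2.4e-07). It then turned at D6, to 123 and 115 CPM in TKO against 200.0 and 185 CPM in WT (−0.69, SE 0.064, adjusted p = 1.71e-07). From D4 to D6 Ccnd3 rose by 1.42 in WT (SE 0.066, edgeR adjusted p = 1.48e-11), whereas the TKO change of 0.14 (SE 0.065) was not called. The difference between these changes was not tested.

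The mix of D cyclins was compared in TPM, which allow for transcript length. At D0 Ccnd3 made up 81.3% to 83.0% of the summed D cyclin TPM in the 4 libraries. At D6 Ccnd2 made up 48.7% and 48.0% in WT and 38.2% and 36.7% in TKO. At D8 Ccnd1 led in all 4 libraries, with 46.6% and 45.0% in WT and 51.8% and 50.7% in TKO, and Ccnd2 held 27.3% and 29.4% in WT and 15.8% and 17.4% in TKO.

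**Figure D4:**
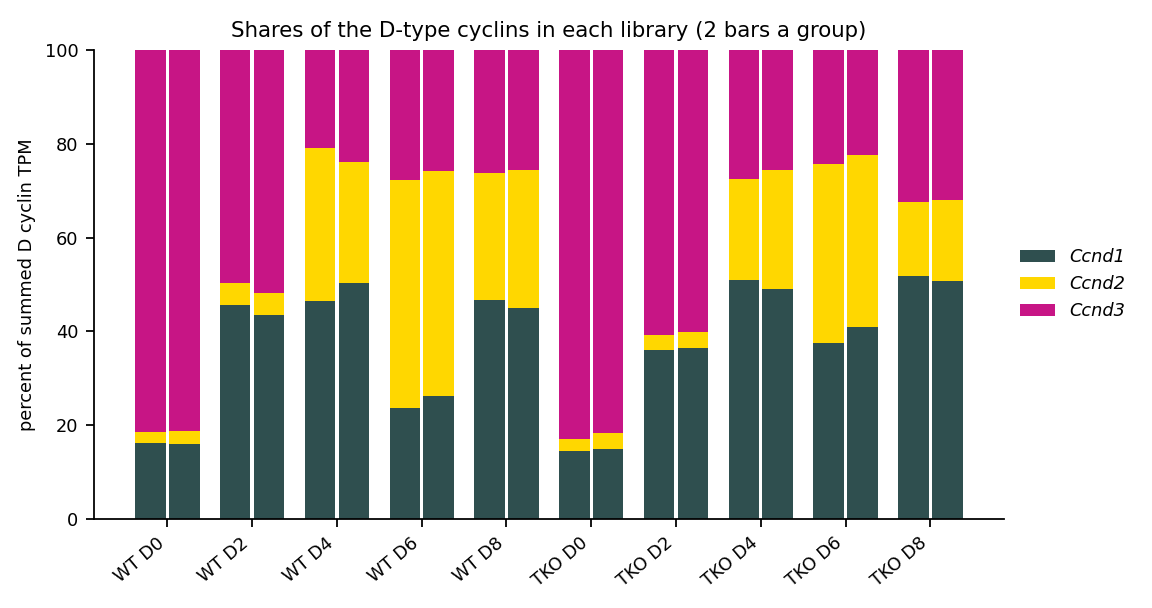
Percent of the summed TPM of the 3 D cyclins (y axis) taken by Ccnd1, Ccnd2 and Ccnd3 in each of the 20 libraries, 2 bars a group. Ccnd3 makes up most of each bar at D0, and Ccnd2 is largest at WT D6.

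TPM were used only for shares between genes within a library. They are not scaled between libraries, and the median gene had a TPM ratio of 0.60 on the log2 scale for WT D8 against D0 and of −0.32 for TKO against WT at D8. Relative to that median gene, the 41 genes had medians of −0.93 and 0.66 in the same comparisons.

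The kinases that the D cyclins activate were unequal in level and in response. Cdk4 took 97.3% to 99.5% of the summed Cdk4 and Cdk6 TPM in the 20 libraries. Cdk4 had 533 and 539 CPM at WT D8 and 497 and 501 CPM at TKO D8, a difference that was not called (log2 −0.10). Cdk6 had 24.0 and 26.4 CPM at WT D4 and 64.1 and 64.7 CPM at TKO D4 (log2 difference 1.35, SE 0.15, edgeR adjusted p = 3.08e-06). At D8 WT had 25.3 and 28.3 CPM and TKO 61.4 and 62.3 CPM (1.21, SE 0.15, adjusted p = 1.22e-06). Its 2 libraries of WT D6 stood apart, at 48.7 and 30.4 CPM, and the WT fall from D6 to D8 was lost without replicate 1 of WT D6 (log2 fold change −0.19, edgeR adjusted p = 0.195).

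Ccne1 had the highest TKO to WT difference at D8 of the 41 genes. It had 42.2 and 44.7 CPM at WT D8 and 133 and 119.7 CPM at TKO D8, a log2 difference of 1.54 (SE 0.11, edgeR adjusted p = 1.52e-09). It fell by 0.60 from D6 to D8 in WT and rose by 0.92 in TKO (interaction 1.53, SE 0.16, adjusted p = 4.08e-07). The other E cyclin gene, Ccne2, did not follow: at D8 WT had 22.7 and 25.5 CPM and TKO 29.8 and 25.9 CPM, not called. In TPM, Ccne1 made up 64.7% and 61.1% of the E cyclin transcripts at WT D8 and 80.1% and 79.4% at TKO D8.

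The 3 transcription factor genes were called lower in TKO at D8, beside 31.8% of all genes, whereas most replication and mitosis genes were higher. Only the call of E2f2 held in every setting. E2f2 had 25.8 ± 1.23 CPM (SD, n = 2) at WT D8 and 13.4 ± 0.851 CPM (SD, n = 2) at TKO D8, with no overlap between the groups (log2 difference −0.94, SE 0.11, edgeR adjusted p = 6.39e-07). Foxm1 had 122 and 123 CPM (WT) and 101 and 107 CPM (TKO) at D8, a difference of −0.24 (SE 0.063, adjusted p = 0.00329), a call lost without TKO D8 replicate 1 (−0.19, adjusted p = 0.0506). E2f1 had 43.8 and 39.4 CPM (WT) and 33.8 and 36.1 CPM (TKO), a difference of −0.25 (SE 0.10, adjusted p = 0.0376), a call lost without WT D8 replicate 1, either TKO D8 library or either TKO D4 library (adjusted p 0.0511 to 0.28).

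The 2 inhibitor genes differed between the genotypes from D0. Cdkn1b was lower in TKO throughout: 57.1 and 59.1 CPM against 87.8 and 89.5 CPM at D0 (log2 difference −0.61, SE 0.071, edgeR adjusted p = 2.83e-06), and 52.6 and 52.9 CPM against 109 and 111 CPM at D8 (−1.06, SE 0.070, adjusted p = 3.81e-10). Only the D4 difference of −0.20 (adjusted p = 0.0468) depended on the analysis, and it was lost in 18 of 26 other settings. From D6 to D8 Cdkn1b fell by 0.51 in TKO, while its WT rise of 0.25 was lost without replicate 2 of WT D6 (0.15, edgeR adjusted p = 0.104).

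Cdkn2c, which encodes the CDK4 and CDK6 inhibitor p18, was higher in TKO up to D6: 3.66 and 3.70 CPM against 1.53 and 1.69 CPM at D0, 15.2 and 15.0 against 4.26 and 3.77 CPM at D4, and 19.3 and 23.6 against 8.82 and 10.4 CPM at D6. The D4 difference was 1.91 (SE 0.14, edgeR adjusted p = 2.17e-08). At D8 it had 8.39 and 7.38 CPM in TKO and 9.64 and 9.70 CPM in WT, a difference of −0.30 that was not called, after a fall of 1.44 in TKO (SE 0.13, adjusted p = 1.18e-07).

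Over all 41 genes, TKO and WT differed most at D8. At D0, 7 genes were higher and 6 lower in TKO, beside 39.3% of all genes called (19.4% as higher, 19.9% as lower). At D2, 2 were higher and 14 lower, beside 35.3% of all genes (18.4% and 16.9%). At D4, 8 were higher and 3 lower, beside 28.3% (15.1% and 13.2%). At D6, 9 were higher and 9 lower, beside 41.3% (20.9% and 20.3%). Thus 31.7%, 39.0%, 26.8% and 43.9% of the 41 genes were called on these days, near the share of all genes, with an excess of lower calls at D2. The medians lay between −0.12 and 0.04. At D2 replicate 2 of TKO lay below replicate 1 for 35 of the 41 genes, with a median log2 ratio of −0.09, close in size to the median genotype difference of −0.12 on that day. Without that library 10 genes were lower and 2 higher at D2, with a median of −0.11. At D8, 27 genes were higher, 6 lower and 8 not called. By more than 2-fold, 11 were higher and 2 lower, and the share of all genes beyond 2-fold was not computed. Of all genes, 67.5% were called at D8, 35.8% as higher and 31.8% as lower, with a median of 0.04 against 0.72 for the 41 genes. Leaving out the 12 genes that share at least 10% of their 31-base words with other genes (Tyms, Ccna2, Rrm2, Ccne2, Plk1, Cdk4, Ccnd1, Pcna, Cdc20, Ccnb1, Mcm7 and Gins2), 20 of 29 were higher and 5 lower, with a median of 0.72.

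**Figure D5:**
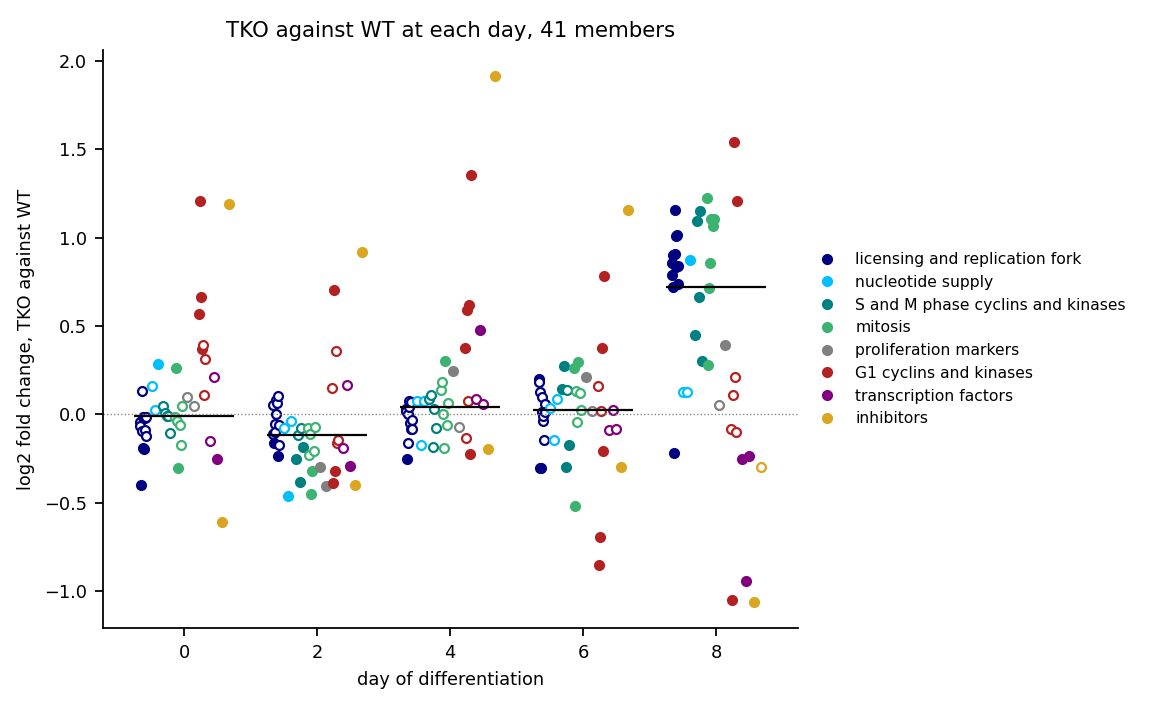
Log2 difference of TKO against WT (y axis) of the 41 genes at each day (x axis), filled where edgeR's adjusted p was under 0.05 and open otherwise, with a black line at the median of the 41. The median stays near 0 up to D6 and is 0.72 at D8.

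Set against D0, 27 genes were lower and 7 higher at D8 in WT (76.8% of all genes called, 39.0% as lower), with a median of −0.86. In TKO 19 were lower and 7 higher (65.1% of all genes called, 34.2% as higher and 30.8% as lower), with a median of −0.14. A test of whether the D0 to D8 change depended on genotype called 32 genes, 26 with a higher change in TKO (52.3% of all genes called, 29.3% as higher). The comparisons with D6 and with D0 share the D8 libraries, and are therefore not separate evidence. Among genes with an E2F motif in their window, 8 of 9 were higher in TKO at D8 and 1, E2f2, lower (median 0.90). Among those with a window and no such motif, 15 of 23 were higher and 2 lower (median 0.74). The same split for CHR gave 11 of 13 with it (median 0.86) and 12 of 19 without (0.74) as higher, and for CCAAT 17 of 24 with it (0.85) and 6 of 8 without (0.83), beside 35.8% of all genes. These splits were not tested.

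Genes of the same processes that are not among the 41 were described in 4 lists. These lists, too, were chosen with earlier results of these data known. Of 40 other replication and nucleotide supply genes, 35 were higher and 1 lower in TKO at D8, with a median of 0.71, beside 35.8% of all genes called as higher and 31.8% as lower. From D6 to D8, 36 fell in WT (30.4% of all genes called as lower), while 20 rose and 3 fell in TKO (25.5% of all genes called as higher, 24.5% as lower). Orc5, a subunit of the origin recognition complex, was at 72.8 CPM in TKO and 30.0 CPM in WT (log2 difference 1.28, SE 0.061, edgeR adjusted p = 6.17e-12). Of 38 other mitosis and cytokinesis genes, 36 were higher and 1 lower at D8, with a median of 0.51, against the same shares of all genes. From D6 to D8, 37 of these fell in WT, and in TKO 20 fell and 2 rose, so in TKO more of this list fell than rose, the reverse of the replication list. Anln, which encodes the contractile ring protein anillin, was at 128 CPM in TKO and 52.5 CPM in WT at D8 (1.29, SE 0.059, adjusted p = 3.43e-12).

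Of 27 genes of cell cycle control and transcription, 16 were higher and 7 lower in TKO at D8, with a median of 0.41, beside 35.8% of all genes called as higher and 31.8% as lower. Mybl2, a partner of the MuvB complex, was at 189.8 CPM in TKO and 58.7 CPM in WT (1.69, SE 0.066, edgeR adjusted p = 4.75e-13), although 21.1% of its 31-base words occur in other genes. Mycn, a Myc family factor, was at 160.5 and 62.9 CPM (1.35, SE 0.070, adjusted p = 1.53e-11). Of 13 inhibitors and genes of cell cycle exit, 6 were higher and 7 lower at D8, with a median of −0.55, beside the same shares. Cdkn1c, which encodes the inhibitor p57, was at 67.9 CPM in TKO and 405 CPM in WT (−2.58, SE 0.090, adjusted p = 1.3e-13), with 27.2% of its words shared. Cdkn2a, the locus of p16 and p19, went the other way, at 36.2 and 8.28 CPM (2.13, SE 0.10, adjusted p = 7.05e-12). The inhibitors thus did not move as a group.

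Marker genes of cell types moved with these results between D6 and D8. The summed CPM of 8 neuronal markers went from 697 and 636 to 3242 and 3266 in WT and from 1012 and 1299 to 859 and 859 in TKO. The sum of 9 pluripotency markers went from 266 and 253 to 264 and 238 CPM in WT and from 354 and 299 to 1325 and 1246 CPM in TKO. These sums hide the course of single markers: in WT 6 of the 9 rose and 1 fell from D6 to D8, with a median log2 fold change of 1.5, and in TKO 8 rose, with a median of 2.03. At D6, 8 of the 9 were already higher in TKO than in WT and 1 was lower, with a median of 3.32. The sum of 8 neural progenitor markers went from 2795 and 2638 to 2447 and 2515 CPM in WT and from 1938 and 2062 to 956 and 953 CPM in TKO. At D8, 8 of 8 neuronal markers were lower in TKO and 8 of 9 pluripotency markers higher, and none of the markers in these 3 lists was at 0 at D6 or D8. At D8 the sums of 6 endoderm markers (42.5 to 66.6 CPM), 6 trophoblast markers (35.1 to 58.4 CPM), 6 glial markers (24.3 to 45.9 CPM) and 5 mesoderm markers (2.64 to 11.5 CPM) were low in each of the 4 libraries. The part of cell composition in the D8 results was not tested.

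Within the 41 genes, the likeness of the courses was described by Pearson's r between a gene's 10 group means and the mean of the standardised mitosis genes, leaving out the gene itself. The 10 points share libraries and scaling, and r is given without a test. It was 0.98 for Cdk1 and for Aurka, 0.96 for Mcm7, Ccna2 and Cdc20 and 0.95 for Mcm6. It was 0.13 for Mki67, 0.18 for Gins2, 0.19 for Rrm1 and 0.11 for Aurkb, and −0.74 for Cdkn1b, −0.54 for E2f2, −0.48 for Cdkn2c and −0.47 for Ccnd2. The 6 genes outside the 41 with the most similar course were Rbmx2, Vars, Nup37, Cct4, Mrpl28 and Prmt7, each at 0.98.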

How the data were processed

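Stranded mRNA libraries of 20 samples were sequenced by the study's authors. Per the submitters' processing notes, Trim Galore 0.6.2, kallisto and the mouse genome builds GRCm38 and mm10 were used. The transcript set is not given in the sources used here. The deposited tables hold estimated counts and TPM for 119414 transcripts, per the file headers. Of these, 116728 were matched by identifier to GENCODE transcripts and the rest, 0.943% to 1.1% of a library's counts, were left out.

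For each gene, the estimated counts deposited by the authors were added up and then rounded to integers. The TPM that the authors deposited were summed per gene and used for shares between genes. The tests used R 4.3.3, edgeR 4.0.16 (quasi-likelihood test with trimmed mean of M-values scaling and filterByExpr, all 10 groups in 1 fit, Benjamini-Hochberg adjustment over 18555 genes, threshold 0.05). SE is the absolute log2 fold change divided by the square root of F. Alternatives were DESeq2 1.42.0, relative log expression scaling, no filter on low counts, counts corrected for transcript length, a replicate block, a threshold of 0.01, leaving out each of the 20 libraries in turn and, chosen after seeing the data, TPM not scaled between libraries. The fit was tried on simulated data for TKO against WT at D0, with the same spread for every gene and library. It recovered 54 of 67 genes changed 1.5-fold, 66 of 67 changed 2-fold and 66 of 66 changed 4-fold. There were 12 false calls among 17987 unchanged genes. The simulation did not copy the unequal spread of the real groups, so it cannot show how the fit handles that. Kallisto divides reads among transcripts that share sequence, so genes sharing at least 10% of their 31-base words are named as uncertain. Intervals from replicates rest on 2 libraries per group, whose counts differed by more than sampling noise in every group (chi-square per degree of freedom 2.98 to 29.5).

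Replicate numbers did not pair the samples (correlations of deviations −0.04 to 0.05), so no block was used. The 41 genes and all gene lists were chosen with earlier results of these data known. Levels per library are named for genes that carry each role, and for some, not all, of the 4 highest and 4 lowest called differences of the main comparisons. From the other lists at most 3 genes per comparison are named, by the size of the called change with at least 5 CPM in a group. Promoter windows come from RefSeq tables, and other upstream parameters were not given in the sources used here.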

Additional observations from a re-analysis of the deposited data

Results flagged for a closer look

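Each result here was picked out because a test of the interaction of genotype with day, in edgeR's quasi-likelihood fit, gave an adjusted p under 0.05: the change over the days differed between TKO and WT. For D8 against D0, 32 of the 41 genes were called, beside 52.3% of all genes tested. Among the genes named by role, the change in TKO exceeded that in WT, on the log2 scale, by 0.75 for Pcna, 0.92 for Mcm2, 1.34 for Mcm3, 1.30 for Cdt1, 1.09 for Ccnb1, 1.16 for Cdk1, 1.17 for Ccne1 and 0.89 for Cdk6. The mitosis genes Aurka and Cdc20 had interactions of 1.24 and 1.24. The interaction was negative, with a lower change in TKO, for Ccnd1 (−0.66), Ccnd2 (−2.26), Ccnd3 (−0.56), E2f2 (−1.16), Cdkn1b (−0.45) and Cdkn2c (−1.49).

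For D8 against D6, 30 genes were called, beside 49.9% of all genes tested. The interaction was 0.72 for Pcna, 0.89 for Mcm2, 1.16 for Mcm6, 1.20 for Cdt1, 0.82 for Ccnb1, 1.01 for Cdk1, 1.08 for Plk1, 1.53 for Ccne1 and 0.80 for Ccnd3. It was −0.97 for E2f2, −0.76 for Cdkn1b and −1.45 for Cdkn2c. Ccnd3 had opposite signs in the contrasts, and its level was higher in WT at D6 and higher in TKO at D0. The contrasts share the D8 libraries.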

How the results depend on the processing

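With only 2 libraries per group, many differences of about 0.2 on the log2 scale, and some larger ones, depended on the setting. For TKO against WT, Ccne2 at D6 was lost in 18 settings, where its log2 difference was 0.14 to 0.38. Ccnd2 at D2 was lost in 5 settings, at −0.41 to −0.12. In 26 other settings, all 442 recomputed counts of called genes among the 41 stayed within 1.5 times the reported count. Of 470 called gene results, 396 were called in every planned setting, 74 were lost in at least 1, and 2 reversed. Both reversals concern Gins2 with counts corrected for transcript length: 0.50 in place of −0.22 for TKO against WT at D8, and −0.90 in place of 0.18 for WT from D6 to D8. In deposited TPM not scaled between libraries, chosen after seeing the data, the median over the 41 genes changed sign for WT from D2 to D4 (0.0019), TKO from D2 to D4 (0.157), TKO from D6 to D8 (−0.024) and TKO D8 against D0 (0.136). Relative to the median gene these medians were −0.22, −0.07, 0.03 and −0.23. Of all genes, 5258 were called for TKO against WT at D4, 3237 at an adjusted p under 0.01, and 3356 (without TKO D4 replicate 2) to 5975 with 1 library left out. The median for WT from D2 to D4 was −0.23 as reported, −0.30 with DESeq2 and −0.15 without WT D2 replicate 2. Scaling by relative log expression moved the median of all genes by at most 0.04. With a replicate block, the count for TKO against WT at D6 was 17 in place of 18, since Ccna2 was lost (adjusted p = 0.0553), and the counts of all 16 other comparisons were as without it. The Ccna2 call at D6 was lost in 21 of the 26 settings, and the Aurkb call for TKO against WT at D0 in 17. The pairing check is given with the processing.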
